A study of Eublepharis macularius with 18 samples.

Results

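Cytosolic ribosomal protein genes encode the proteins of the ribosomes that translate nuclear mRNAs. They were chosen by name: a row of the deposited table belonged to them when its symbol read Rpl or Rps followed by a digit, or Rplp followed by a digit, and symbols starting Rps6k, which name kinases, were left out. The rule found 80 of the 12376 rows, 47 with large subunit names and 33 with small subunit names. Of these, 72 were core ribosomal protein genes, 7 carried the names of paralogs (Rpl3l, Rpl7l1, Rpl22l1, Rpl36al, Rpl39l, Rps27l and Rps27rt) and 1, Rps18-ps5, carried the name of a mouse pseudogene. Genes averaging at least 10 normalized counts were tested, which kept 79 of the 80 and left out Rps18-ps5, listed at 0 in 15 libraries and at 3.69 or less in the others. The rule itself uses symbols and no measured value.

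The animals were leopard geckos (Eublepharis macularius), lizards whose ventricle was injured by cryoinjury, in which a metal probe chilled with liquid nitrogen is held against the heart after the pericardium is torn. RNA was extracted from each animal on its own, and poly-A RNA of the ventricle was sequenced from 3 animals in each of 6 groups. Hearts were taken 3, 14, 30 and 100 days post injury (dpi) beside the injury, and a comparable region was taken from control and sham animals. The labels give a treatment of control or sham with no sampling time for either, and they give no age, sex, strain or sequencing batch. Transcripts were assembled on the gecko genome and given names from mouse annotation, so each symbol below is the mouse name given to a gecko transcript, and 73 of the 80 names also belong to a RefSeq gene of this gecko.

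A ribosome consists of a small subunit, which reads the mRNA, and a large subunit, which joins amino acids and releases the new chain through a tunnel. Each ribosomal protein is needed in a fixed ratio to the rRNA. In vertebrates most of their mRNAs begin with a terminal oligopyrimidine (TOP) tract, through which mTOR and LARP1 set their translation and stability. In heart muscle ribosome number rises when the cells grow, and in mammals striated muscle makes the paralog RPL3L in place of part of its RPL3.

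The 18 libraries held, as whole reads recovered from the normalized counts, 12646411 (14 dpi 2) to 34898541 reads (100 dpi 3), and the next deepest held 19825686 (control 3). Per-library levels below are normalized counts, and changes are differences of log2(normalized count + 1) with the standard error (SE) of 1 limma model over all 6 groups. Calls were made at an adjusted p (Benjamini-Hochberg, over the 9887 genes tested) below 0.05. The background given beside a count is the percentage of the other 9808 tested genes that met the same rule. For calls by adjusted p it is that of limma alone. No background is given for the calls of edgeR or DESeq2, so their counts are not to be set against it. Ribosomal protein genes moved together from library to library, as described below. Their counts therefore do not stand for independent genes, and no count was tested against its background. Markers of heart muscle were abundant: 9 of 11 had a row, together 3.68% to 5.32% of all normalized counts, although Myl2 was listed at 0 in every library. In tissue RNA of this kind, fewer cells of a type cannot be told apart from less of an RNA per cell.

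Ribosomal protein mRNAs made up a large part of the poly-A RNA of these hearts for so few genes. Their share of all normalized counts ran from 2.87% (30 dpi 2) to 5.10% (control 3), and their share of all FPKM, which corrects for transcript length, from 11.9% to 18.1%. On the FPKM scale, averaged over the 18 libraries, the highest level was that of Rps27, a zinc finger protein of the small subunit, at 3344 (2534 to 5410.1 across libraries). Rps12, in the head of the small subunit, averaged 2939 (1998 to 3940.2). Rps15, a small subunit protein near the decoding site, averaged 2575 (1957 to 3618). The ranges of these 3 overlapped across libraries. Rps29, another zinc finger protein of the small subunit, averaged 2476 (1468 to 4084), and Rpl23, at the interface of the subunits, averaged 1953 (1437 to 2579). At the low end stood the paralogs. Rps27rt averaged 18.5, Rpl3l 20.3, Rpl7l1 33.4, Rps27l 45.3 and Rpl22l1 45.8 FPKM. The lowest core gene was Rpl38 at 241 FPKM, above all 5 of them. The paralog names Rpl39l (954) and Rpl36al (1307) stood among the core genes. The gecko RefSeq annotation names RPL39 and RPL36A and neither of those 2 paralogs. No row carried the name Rpl39, Rpl36a, Rplp2 or Rpl41. Whether the rows named Rpl39l and Rpl36al hold reads of the core genes was not tested. FPKM levels depend on the assembled transcript: the ratio of normalized count to FPKM implied only 56.4 bases for Rpl23a and 2514 bases for Rpl13a, so single FPKM levels can be too high or too low.

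Libraries differed in the level of the whole set. For each library the deviation of every tested ribosomal protein gene from its own log2 mean over the 18 libraries was taken, and the median over the 79 genes was 0.21, 0.20 and 0.40 in the 3 controls. Sham hearts stood at 0.25, 0.04 and -0.12, and 3 dpi hearts at -0.15, 0.07 and -0.09. At 14 dpi the medians were -0.18, -0.19 and -0.0046, at 30 dpi 0.22, -0.36 and -0.39, and at 100 dpi -0.02, 0.16 and 0.0089. Every control library lay above 0, and every 14 dpi library below 0. All libraries of 3, 14 and 100 dpi lay below all 3 controls, whereas sham 1 and 30 dpi 1 lay among the controls. The 3 hearts of 30 dpi did not form 1 level: 30 dpi 1 was the highest of its group in 77 of 79 genes, and the other two stood lower than any other library. Control 3 held the highest value of all 18 libraries for 61 genes, 30 dpi 3 the lowest for 46 and 30 dpi 2 the lowest for 29. The group means of the library medians were 0.27 ± 0.11 (SD, n = 3) in control, 0.06 ± 0.18 in sham, -0.05 ± 0.11 at 3 dpi, -0.13 ± 0.10 at 14 dpi, -0.18 ± 0.34 at 30 dpi and 0.05 ± 0.10 at 100 dpi.

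**Figure D1:**
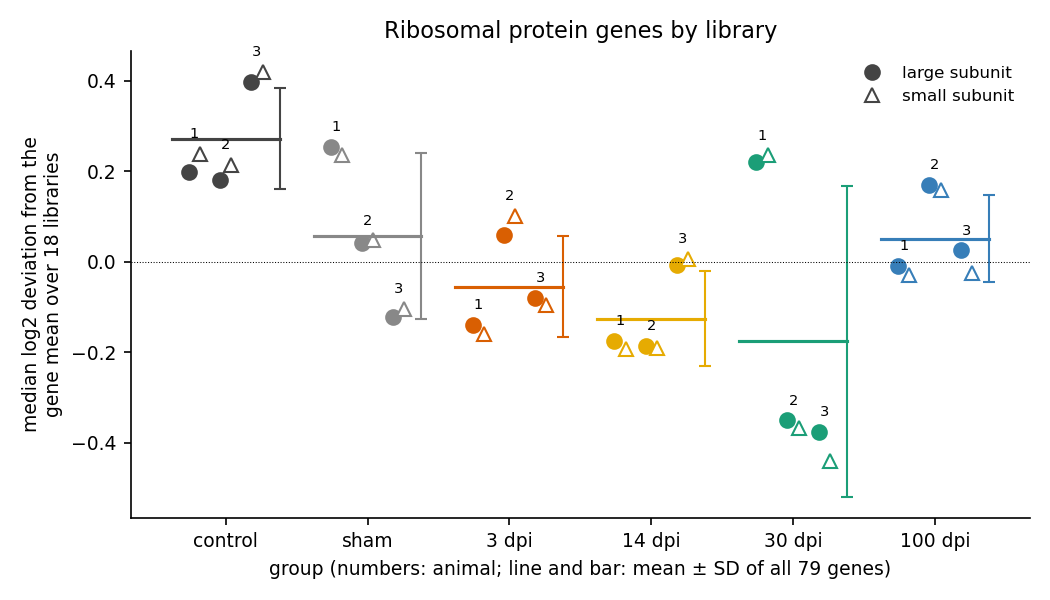
Median log2 deviation of the large subunit genes (filled circles, 47 genes) and small subunit genes (open triangles, 32 genes) from their gene means, for each of the 18 libraries by group, with the mean and SD of the 3 library medians of all 79 genes beside each group. The 2 subunits lie close together in every library, 30 dpi 1 stands apart from 30 dpi 2 and 3, and control 3 is the highest library.

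Large and small subunit genes stood close together in each library. The median of the large subunit genes minus that of the small subunit genes lay between -0.04 and 0.06 in the 18 libraries, while the large subunit medians spanned -0.38 to 0.40 and the small subunit medians -0.44 to 0.42. Of the sum of squares of all 79 genes, 59.1% lay along their mean over genes per library. The median correlation of a gene with the mean of the other 78 over the 18 libraries was 0.93, and 64 genes were above 0.8; this is a description over libraries that share their scaling, and it carries no test. Rpl7, a large subunit protein, followed the set most closely at 0.98. Among the genes that followed it least were Rpl3l at -0.15, Rps27rt at 0.37, Rpl22l1 at 0.52, Rpl9 at 0.57 and Rpl7l1 at 0.67. Of these 5, Rpl9 alone is a core gene, a large subunit protein; it read 11216, 13201 and 12445 in control, 15488, 12769.9 and 10147 in sham and 8749, 10357 and 14383 at 3 dpi. Its later values were 12340.5, 10761 and 11346 at 14 dpi, 18936, 10632 and 8403 at 30 dpi and 10489.9, 11801 and 13470.2 at 100 dpi. The peak of Rpl9 was 30 dpi 1, and its groups all overlapped control.

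**Figure D2:**
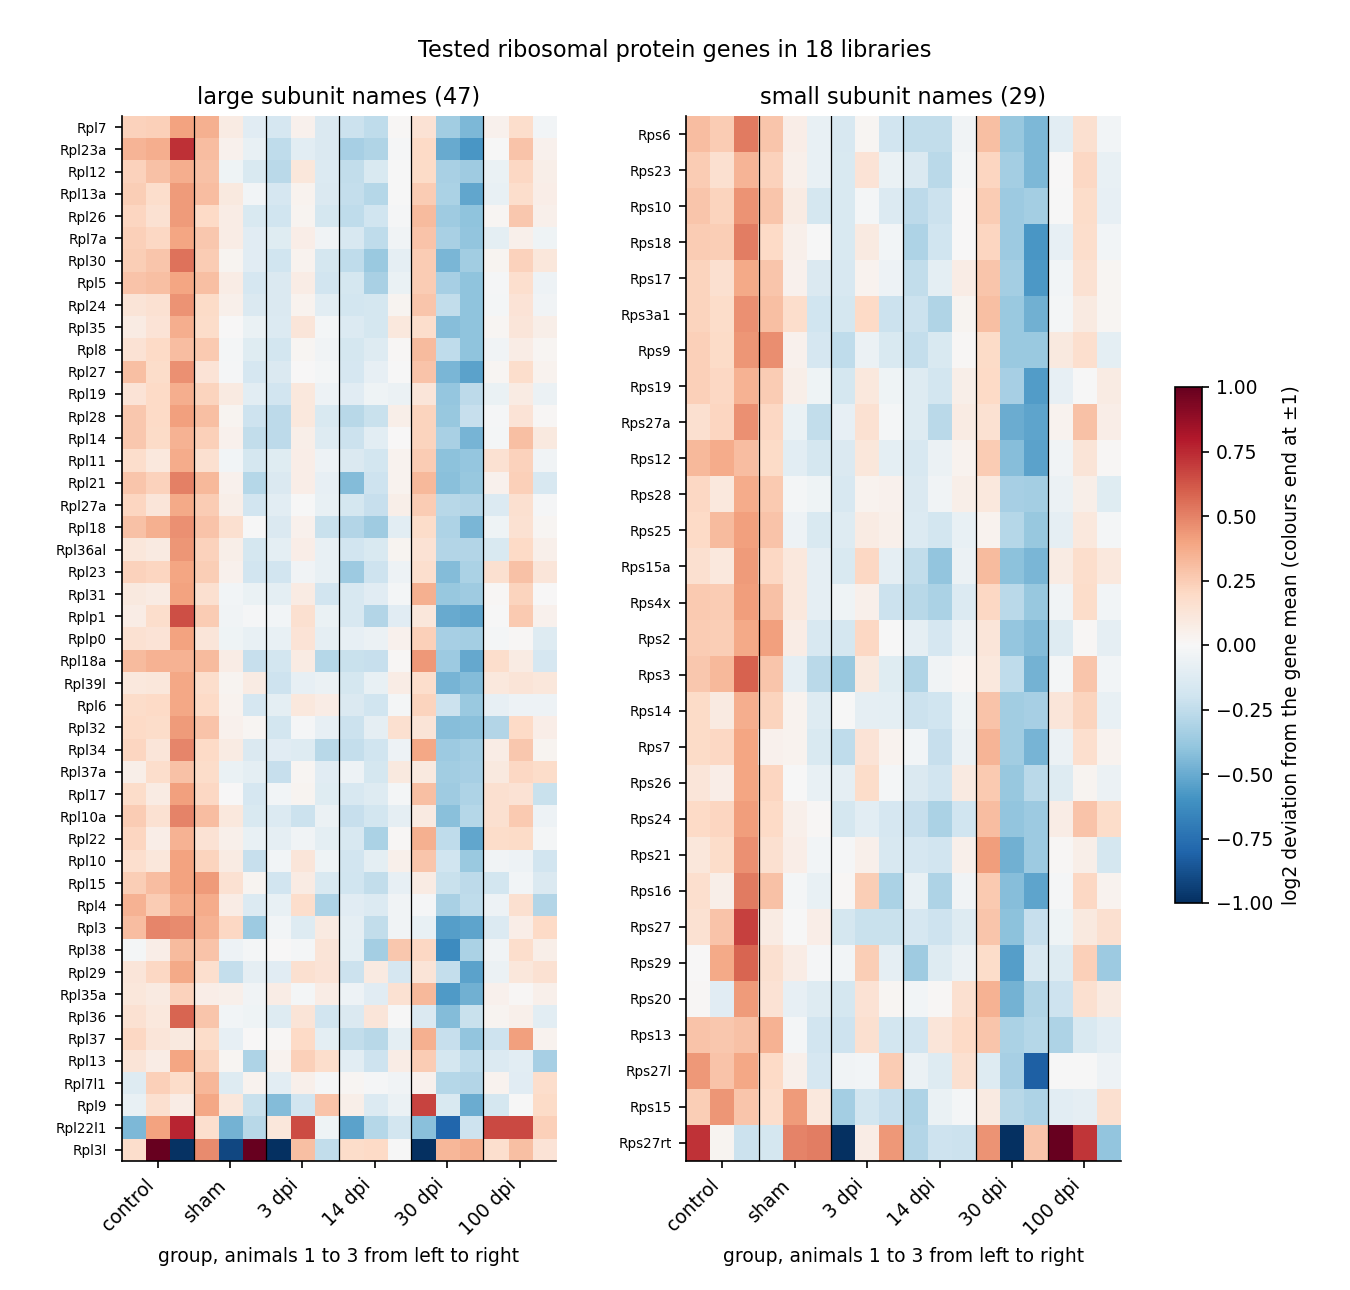
Log2 deviation of tested ribosomal protein genes (rows, 47 of the large and 29 of the small subunit) from its mean over the 18 libraries (columns, animals 1 to 3 within each group), large subunit left and small subunit right, with colours ending at ±1. Control columns are mostly red, 30 dpi 2 and 30 dpi 3 mostly blue, and the rows of Rpl3l, Rpl22l1 and Rps27rt do not follow the others.

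Sham hearts, which the labels describe no further, stood lower than control hearts in most ribosomal protein genes, and no gene passed the test. The counts of called genes were 0 with each tool (limma 0 of 79, edgeR 0, DESeq2 0; background 0.00% of other genes called lower), and 5 genes were lower at an unadjusted p under 0.05, against 2.76% of other genes. The median change was -0.21 for the large and -0.20 for the small subunit, against 0.00032 over all tested genes, and 76 of 79 changes were negative (background 49.6%). For 12 genes all 3 sham libraries lay below all 3 controls (background 5.92%). The libraries of the group differed: 13 genes of sham 1, 72 of sham 2 and 74 of sham 3 read below every control, where the shares over all tested genes were 22.9%, 25.9% and 28.1%, and sham 1 was thus under that of all genes. Without sham 1 the count of genes with no overlap was 70, against 14.7% of all genes. Rps3, a small subunit protein at the mRNA entry site, had the smallest p. Its values were 18828, 19521 and 23562 in control and 18977, 14717 and 12941 in sham hearts, with sham 1 inside the control range (log2 -0.42 ± 0.18 SE, limma adjusted p = 0.93). Positive changes were those of Rpl3l (0.34), Rps27rt (0.10) and Rpl9 (0.04). The sum of smooth muscle markers, 5 of 6 with a row, was also lower in every sham heart (66872 to 71550.1 normalized counts) than in every control (93556 to 111132); its part in these values was not tested.

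At 3 dpi every tested ribosomal protein gene had a negative change from control (background 48.4%). The limma test called 0 of 79 (limma background 0.112% called lower). EdgeR called 0 and DESeq2 5, with no background given for either. The medians were -0.31 for the large and -0.31 for the small subunit, against 0.0084 over all genes, and 36 genes were lower at an unadjusted p under 0.05 (background 7.15%). For 60 genes all 3 hearts lay below all 3 controls, 35 of the large and 25 of the small subunit (background 9.59%). The lowest p was that of Rps15. It read 16842, 19298 and 17279 in control, 16096, 19138 and 15338 in sham and 11252, 12505 and 12140.3 at 3 dpi. Afterwards Rps15 read 11452, 13610.3 and 14015 at 14 dpi, 15147, 11727 and 11464 at 30 dpi and 13194, 13372 and 15872 at 100 dpi. All 12 injured hearts stood below the 3 controls, and the 3 dpi hearts also below all sham hearts (log2 -0.57 ± 0.13 SE, limma adjusted p = 0.073; against sham log2 -0.49 ± 0.13 SE, limma adjusted p = 0.0791). Rps27 had the next lowest p at 3 dpi. It read 16564, 18137 and 23912 in control, 15762, 14863 and 15556 in sham and 13179, 12740.2 and 12722 at 3 dpi. At the later times its values were 13224, 12857 and 13630.3, then 18065, 11176 and 12641, then 14429, 15952 and 16605 at 14, 30 and 100 dpi. Control 3 was far above the other controls for Rps27, and no sham, 3 dpi or 14 dpi heart reached the lowest control (log2 -0.58 ± 0.16 SE, limma adjusted p = 0.0971). Without 30 dpi 1 in the model, which changes only the shared spread, 2 genes were called at 3 dpi (share over all genes not given). Fibroblast and matrix markers, 11 of 12 with a row and none at 0, summed to 61646 to 87452 normalized counts at 3 dpi and 91059 to 98768 at 14 dpi, above the 39287 to 44718 of control, and epicardial markers, 5 of 8 with a row, to 686 to 4583 and 544 to 2082 against 233 to 419; their part in the lower ribosomal protein levels was not tested.

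At 14 dpi ribosomal protein levels were again lower than in control. All 79 changes from control were negative (background 49.3%), with medians of -0.37 for the large and -0.42 for the small subunit (0.0023 over all genes). The limma test called none (limma background 0.173% called lower). EdgeR called 0 and DESeq2 13, with no background given for either. In limma 53 were lower at an unadjusted p under 0.05 (background 6.73%). For 67 genes the 3 hearts lay below all 3 controls (background 12.6%). Rpl18 and Rpl15, both large subunit proteins, had the lowest p. Rpl18 read 17329.5, 18159.9 and 19410.1 in control, 17226, 15879 and 14156 in sham and 12805, 14600.1 and 12155 at 3 dpi. It then read 11538, 11058 and 13186 at 14 dpi, 16091, 11440.1 and 10311 at 30 dpi and 13723, 15729 and 14387 at 100 dpi. No sham or injured heart reached the lowest control for Rpl18, and the lowest values were those of 30 dpi 3 and 14 dpi 2 (log2 -0.62 ± 0.15 SE, limma adjusted p = 0.0589). Rpl15 read 11841, 12353 and 13194 in control, 13408, 11104 and 10209.8 in sham and 8737, 10570.2 and 8971 at 3 dpi. At 14 dpi it read 8717, 8421 and 9434, at 30 dpi 10584, 8584 and 8316 and at 100 dpi 8779, 9793 and 9041. Sham 1 was the highest library for Rpl15, and all 12 injured hearts stood below the controls (log2 -0.49 ± 0.12 SE, limma adjusted p = 0.0686). Libraries of other groups enter this test through the shared spread: without 30 dpi 1 it called 8 genes at 14 dpi, and without sham 1, 3 dpi 3 or 30 dpi 3 it called 1. The share over all genes is not given for these fits. Cell division markers, 11 of 13 tested, also stood higher at 14 dpi (2344 to 3330.1) than in control (813 to 985). Their sums in sham 2 (2157), sham 3 (3080), 3 dpi 3 (2122) and 100 dpi 3 (3045) were above all controls too. The remaining sham and injured hearts outside 14 dpi were not above the highest control. The part of these markers was not tested.

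At 30 dpi 25 ribosomal protein genes were called, all lower than in control, 12 of 47 large and 13 of 32 small subunit genes, where the background was 3.73%. Their log2 changes ran from -0.81 for Rpl3 to -0.42 for Rps28. The large subunit genes were Rpl3, Rpl23a, Rpl36, Rpl18, Rpl15, Rpl10a, Rplp1, Rpl4, Rpl30, Rpl7, Rpl27 and Rpl23. Among the small subunit genes were Rps27l, Rps25, Rps15, Rps18, Rps12, Rps3, Rps27a, Rps2, Rps28 and Rps19. All 79 changes were negative (background 52.6%), with medians of -0.42 and -0.48 for the 2 subunits (-0.03 over all genes), and 66 genes were lower at an unadjusted p under 0.05 (background 12.4%). With other tools edgeR called 14 and DESeq2 36. Beside these changes, the 5 tested of 11 leukocyte markers summed to 373 to 449 normalized counts at 30 dpi against 626 to 976 in control, the smooth muscle markers to 50963 to 82488 against 93556 to 111132, and 5 of 8 endothelial markers with a row to 6839 to 7062 against 4845 to 6474. The 10 rows with most reads held 20.6% to 24.0% of reads at 30 dpi and 16.1% to 19.0% in control. The part of each of these in the ribosomal protein result was not tested. Despite the larger medians, only 27 genes had no overlap with control (background 13.3%), fewer than at 3 or 14 dpi: 30 dpi 1 read below every control in 28 genes, whereas 30 dpi 2 did so in 78 and 30 dpi 3 in 76. Over all tested genes these shares were 32.8%, 32.8% and 34.98%, so 30 dpi 1 was near the share of all genes.

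The genes with the smallest p at 30 dpi had no library inside the control range. Rps27l, a paralog of Rps27 that p53 induces in human cells, read 1559, 1411 and 1508 in control, 1323, 1197 and 1026 in sham and 1125, 1130.2 and 1379.5 at 3 dpi. It read 1110.5, 1054 and 1288 at 14 dpi, 1059, 916 and 654 at 30 dpi and 1149, 1149 and 1117 at 100 dpi. Every sham and injured heart was below every control, and Rps27l was 1.73-fold lower at 30 dpi than in control (log2 -0.79 ± 0.15 SE, limma adjusted p = 0.00359). Against sham it was 1.37-fold lower at 30 dpi and not called (limma adjusted p = 0.0894). Rpl3, which lies next to the site where peptide bonds form, read 9529, 10825 and 10694 in control, 9779.7, 8884 and 5990.5 in sham and 7551, 7038 and 8198 at 3 dpi. Its values were 7248, 6505 and 7537 at 14 dpi, 7309, 5256 and 5349 at 30 dpi and 7024, 8069 and 8843 at 100 dpi. All injured hearts stood below the controls for Rpl3, and it was 1.75-fold lower at 30 dpi than in control (log2 -0.81 ± 0.17 SE, limma adjusted p = 0.00599). Against sham Rpl3 was 1.36-fold lower at 30 dpi and not called (limma adjusted p = 0.129). Rpl23a, at the mouth of the tunnel where the signal recognition particle docks, read 1156, 1179 and 1518 in control, 1134, 942 and 870.2 in sham and 765, 849.7 and 828 at 3 dpi. At 14, 30 and 100 dpi it read 726, 744 and 905, then 1052, 643 and 612, then 913, 1116 and 942. No other heart reached the lowest control, although sham 1, 100 dpi 2 and 30 dpi 1 came near it (log2 -0.77 ± 0.18 SE, limma adjusted p = 0.013).

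Rps25, a small subunit protein used in initiation at some viral and cellular internal entry sites, read 8048, 8735 and 9308 in control, 8539.7, 6762 and 6306 in sham and 6407, 7393 and 7234 at 3 dpi. It read 6373, 6176 and 6645 at 14 dpi, 7183, 5744 and 5373 at 30 dpi and 6584, 7526 and 6894 at 100 dpi. All injured hearts were below all controls (log2 -0.52 ± 0.13 SE, limma adjusted p = 0.0153). Rpl36, a large subunit protein, read 3215, 3118 and 4331 in control, 3506, 2847 and 2809.9 in sham and 2654, 3161 and 2531 at 3 dpi. Its later values were 2616, 3154 and 2879.9 at 14 dpi, 2623, 2140.4 and 2487 at 30 dpi and 2956, 3004 and 2687 at 100 dpi. Control 3 stood far above the other controls for Rpl36, and 30 and 100 dpi were the groups with no overlap (log2 -0.55 ± 0.14 SE, limma adjusted p = 0.0191).

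**Figure D3:**
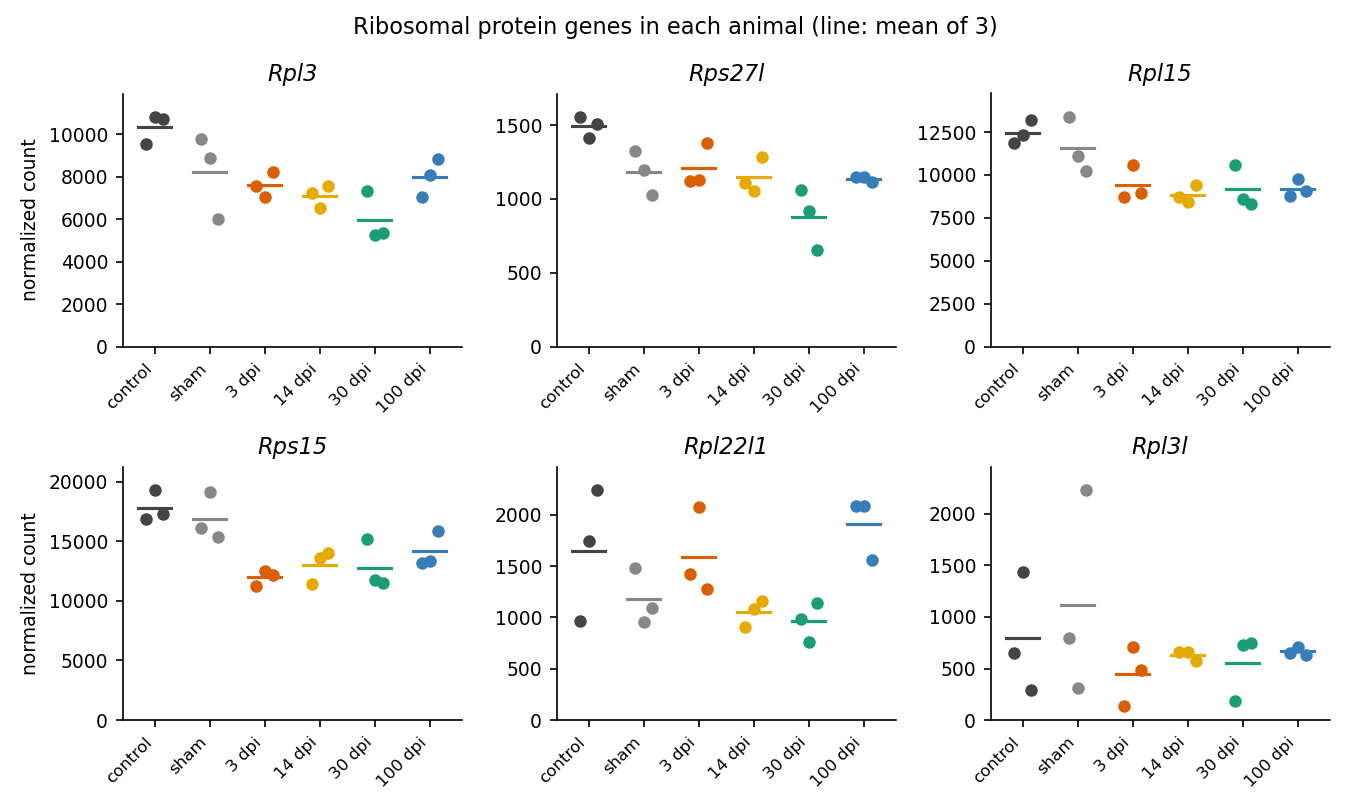
Normalized counts of Rpl3, Rps27l, Rpl15, Rps15, Rpl22l1 and Rpl3l in each of the 18 hearts by group, each point 1 animal and each line the mean of 3, on linear axes from 0. For the first 4 genes all injured hearts lie below the controls, whereas Rpl22l1 is high again at 100 dpi and Rpl3l scatters within the control, sham, 3 dpi and 30 dpi groups.

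The number of calls at 30 dpi rested on single libraries. Over all tested genes, in either direction, the full model called 1120. Without 30 dpi 1 the test called 71 ribosomal protein genes (1415 of all genes), with a median change of -0.65. Without 30 dpi 2 it called 2 (827 of all genes), and without 30 dpi 3 it called 3 (590). Without control 3, the control with the highest ribosomal protein levels, it called 2 (755 of all genes), without control 2 it called 7 (624) and without control 1 it called 12 (788). Leaving out sham 2 gave 15 calls, and leaving out 14 dpi 1, 14 dpi 2 or 100 dpi 1 gave 16 each, with 999 to 1028 of all genes called in these 4 fits. Over the 18 fits that each left out 1 library the median change ran from -0.65 to -0.34. With only the control and 30 dpi hearts in the model 1 gene was called, and with the replicate number as a block 14.

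At 100 dpi the median change from control was smaller than at 30 dpi as measured (-0.24 against -0.46), and with the length trend removed the medians were -0.08 and -0.11. Rpl15 was the 1 gene called, and it was lower (log2 -0.44 ± 0.12 SE, limma adjusted p = 0.03; edgeR 1 gene, DESeq2 3; background 4.48% called lower). That call did not hold without control 1, 2 or 3, or without 100 dpi 1 or 3, each of which left 0 genes called, while leaving out 30 dpi 1 or 30 dpi 3 gave 3. The change of Rpl15 itself ran from -0.48 to -0.40 over these fits. The median change from control was -0.22 for the large and -0.27 for the small subunit (-0.02 over all genes), 76 of 79 changes were negative (background 51.3%), and 12 genes were lower at an unadjusted p under 0.05 (background 13.0%). For 43 genes all 3 hearts still lay below the 3 controls (background 17.1%). Smooth muscle markers summed to 48534 to 71026 normalized counts at 100 dpi against 93556 to 111132 in control, and endothelial markers to 7950.1 to 11045 against 4845 to 6474; their part was not tested. The positive changes were those of Rpl22l1 (0.28), Rps27rt (0.30) and Rpl3l (0.04).

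A test for any difference among the 6 groups called 6 ribosomal protein genes, where the background was 16.2%. They were Rps15 (limma adjusted p = 0.0248), Rpl15 (0.0305), Rps27l (0.0319), Rpl18 (0.0405), Rpl3 (0.0436) and Rpl23a (0.0443), a smaller share than that of the other genes. Without 30 dpi 1 the count was 54, when 1961 of all genes were called against 1597 in the full model. It was 0 without control 2 (1285 of all genes), 1 without control 3 (1425) or 100 dpi 1 (1132), and 2 without control 1, 14 dpi 1, 14 dpi 2, 30 dpi 2, 100 dpi 2 or 100 dpi 3. Without sham 2, 3 dpi 1 or 30 dpi 3 it was 3, and the fits that gave 2 or 3 called 1150 to 1422 of all genes.

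The stalk of the large subunit recruits the factors that drive elongation, and of its genes Rplp1 was called at 30 dpi and Rplp0 was not. Rplp0, its base, read 22838, 22587 and 27045 in control, 22345, 19914 and 19524 in sham and 19444, 22523 and 19298 at 3 dpi. It read 19357, 19673 and 21109 at 14 dpi, 24202, 16270.5 and 16188 at 30 dpi and 20252, 20642 and 18789 at 100 dpi. All groups but 30 dpi, where 30 dpi 1 was high, were free of overlap with control (log2 -0.38 ± 0.14 SE, limma adjusted p = 0.101 at 30 dpi). Rplp1, a stalk protein carried on Rplp0, read 13468, 14429.7 and 19999 in control, 15230.0, 12472 and 12642 in sham and 12509, 14283 and 12211 at 3 dpi. Its later values were 11404, 10445 and 11811 at 14 dpi, 13791, 9002 and 8904 at 30 dpi and 12733, 15323 and 13175 at 100 dpi. Rplp1 was called at 30 dpi although 30 dpi 1 lay inside the control range (log2 -0.60 ± 0.17 SE, limma adjusted p = 0.0347).

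Rpl5 and Rpl11, which form a particle with the smallest rRNA and bind Mdm2 when ribosome assembly fails, were not called. Rpl5 read 18306, 18416 and 19692 in control, 18469, 15818 and 13335 in sham and 13572, 15749.7 and 13114 at 3 dpi. It read 13270.3, 11969.7 and 14323 at 14 dpi, 17907, 11896 and 11351 at 30 dpi and 14884, 16847 and 14505 at 100 dpi. All injured hearts were below all controls, 30 dpi 1 by the least (log2 -0.49 ± 0.16 SE, limma adjusted p = 0.0627 at 30 dpi). Rpl11 read 10555, 10061 and 12100.3 in control, 10456, 9203 and 8313 in sham and 8603, 9799 and 9061 at 3 dpi. Its values were 8467, 8258 and 9575 at 14 dpi, 11166, 7037 and 7168 at 30 dpi and 10384, 11019 and 9121 at 100 dpi. For Rpl11 the 3 and 14 dpi hearts alone had no overlap with control (log2 -0.40 ± 0.16 SE, limma adjusted p = 0.112 at 30 dpi).

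Rps6, the small subunit protein phosphorylated by the S6 kinases downstream of mTOR, read 17369.8, 16722 and 20076 in control, 17021, 14718 and 13296 in sham and 12574, 14202 and 12303 at 3 dpi. It read 11825, 11846 and 13693 at 14 dpi, 17298, 10770.5 and 10259 at 30 dpi and 13028, 15668 and 13784 at 100 dpi. Its 3, 14 and 100 dpi hearts were all below control, and its p at 30 dpi missed the threshold (log2 -0.54 ± 0.17 SE, limma adjusted p = 0.0513). Rps27a, made as a fusion with ubiquitin, read 10606, 10988 and 13041 in control, 10954, 9065 and 8018 in sham and 8977, 10565 and 9349 at 3 dpi. At 14, 30 and 100 dpi it read 8655, 7871 and 10023, then 10527, 6739 and 6596, then 9703, 11638 and 9949.7. It was called at 30 dpi (log2 -0.57 ± 0.17 SE, limma adjusted p = 0.044), and 100 dpi 2 was back inside the control range. The abundant Rps12 read 14533, 15083 and 14407 in control, 13264, 10841 and 10298 in sham, 10511, 12555 and 10863 at 3 dpi and 10409, 11189.6 and 11909 at 14 dpi. It read 13903, 8651 and 8023 at 30 dpi and 11381, 12737 and 11714 at 100 dpi, so no other heart reached any control (log2 -0.57 ± 0.16 SE, limma adjusted p = 0.0356 at 30 dpi).

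Rps29 read 8652, 11198 and 12926 in control, 9629, 9078 and 8552 in sham, 8474, 10252 and 8121 at 3 dpi and 6733, 7905 and 8289 at 14 dpi. At 30 dpi it read 9804, 5899 and 7726 and at 100 dpi 7911, 10171 and 6717. Its controls differed among themselves more than those of Rps12, and only 14 dpi had no overlap (log2 -0.50 ± 0.19 SE, limma adjusted p = 0.212). Rpl23 read 11339, 11258 and 12764 in control, 11500.5, 10009 and 8466 in sham, 8488, 9466 and 9223 at 3 dpi and 7546, 8376 and 9343 at 14 dpi. At 30 dpi it read 10861, 7178 and 7773 and at 100 dpi 10814, 11856 and 10531. Rpl23 was called at 30 dpi (log2 -0.48 ± 0.15 SE, limma adjusted p = 0.0486) and overlapped control again at 100 dpi. For Rps3 the injured hearts read 12038, 16764 and 14368 at 3 dpi, 12702, 15292 and 15763 at 14 dpi, 16836, 13098 and 11245 at 30 dpi and 15461, 18930.0 and 15362 at 100 dpi, and it was called at 30 dpi (log2 -0.60 ± 0.18 SE, limma adjusted p = 0.0412).

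Of the 5 genes with the widest range of group means 4 were paralogs. Over the means of the 6 groups on the log2 scale, the widest ranges were those of Rpl3l (1.19), Rpl22l1 (0.99), Rps27rt (0.86), Rpl3 (0.81) and Rps27l (0.79). Rpl3l read 652, 1432 and 291 in control, 801, 308 and 2233 in sham and 134, 712 and 488 at 3 dpi. It read 657, 664 and 578 at 14 dpi, 185, 729 and 746 at 30 dpi and 651, 711 and 635 at 100 dpi. Sham 3 was the highest and 3 dpi 1 the lowest library, the hearts of 14 and of 100 dpi lay close together, and every group overlapped control. The mean within-group SD of Rpl3l was 0.86 log2 units, against 0.19 for Rpl3. It was 0.67 for Rps27rt, 0.34 for Rpl22l1 and 0.16 for Rps27l. Of the 4 paralogs Rps27l alone was called in the test for any group. The limma adjusted p of that test was 0.721 for Rpl3l, 0.0677 for Rpl22l1 and 0.733 for Rps27rt. On the FPKM scale Rpl3l stood at 6.48% ± 4.48 (SD, n = 3) of Rpl3 in control hearts and at 13.7% ± 15.4 in sham hearts, the latter through sham 3. At 3, 14, 30 and 100 dpi it stood at 5.06% ± 3.57, 7.60% ± 1.16, 8.66% ± 5.59 and 7.08% ± 0.981. Rpl3l was the minor form in every group.

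Rpl22l1, a paralog of the RNA-binding large subunit protein Rpl22, read 966, 1746 and 2241 in control, 1484, 952 and 1088 in sham and 1425, 2072 and 1279.9 at 3 dpi. It read 907, 1081 and 1159 at 14 dpi, 988, 760.5 and 1143 at 30 dpi and 2083, 2084 and 1555 at 100 dpi. All 3 hearts of 100 dpi stood above all of 14 dpi, 30 dpi and sham, while the controls ran from 966 to 2241. The mean was 964 ± 193 (SD, n = 3) at 30 dpi and 1907 ± 305 at 100 dpi, a difference that was not called (log2 0.99 ± 0.27 SE, limma adjusted p = 0.108). Rpl22 itself read 4105, 3707 and 4505 in control, 3912, 3671 and 3369.9 in sham and 3327, 3447 and 3307 at 3 dpi. Its later values were 3169, 2840.1 and 3559 at 14 dpi, 4528, 2962 and 2466 at 30 dpi and 4029, 4041 and 3485 at 100 dpi. Rpl22 followed the whole set, with 30 dpi 1 highest and 30 dpi 3 lowest.

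Rpl7l1, a paralog of Rpl7 known in human cells as an assembly factor, read 674, 867 and 834 in control, 927, 675 and 756 in sham and 684, 761 and 731 at 3 dpi. It read 745, 730.4 and 717 at 14 dpi, 759, 604 and 601 at 30 dpi and 753, 681 and 833 at 100 dpi. Each group overlapped control for Rpl7l1. Rpl7 read 11943, 12014 and 13452 in control, 13028, 10762 and 9400.0 in sham and 9047, 10482 and 9211 at 3 dpi. At the later times it read 8794, 8548 and 10289, then 11265, 8021 and 7461, then 10476, 11504 and 9985. All injured hearts were below all controls for Rpl7 (log2 -0.51 ± 0.15 SE, limma adjusted p = 0.0418 at 30 dpi). The ratio of Rpl7l1 to Rpl7 was higher at 3 dpi than in control in every pair of libraries (log2 difference 0.26, two-sided exact permutation p = 0.1, the smallest that 3 against 3 allows, adjusted p = 0.778 over 20 ratio tests). Of the 20 tests, 4 ratios in 5 groups each against control, the lowest adjusted exact p was that value, and the design cannot go below 0.1 for 1 test. The other ratios were Rpl3l to Rpl3, Rpl22l1 to Rpl22 and Rps27l to Rps27. At 30 dpi Rps27l stood at 1.08% ± 0.268 of the FPKM of Rps27, against 1.35% ± 0.261 in control (SD, n = 3, exact permutation p = 0.3 for the count ratio).

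Rpl39l and Rpl36al stood near the core genes in level and followed the set. Rpl39l, named after a paralog of Rpl39 that mammals use in the testis, read 4549.8, 4576 and 5504 in control, 4765, 4311 and 4460.2 in sham and 3646, 3992 and 4061 at 3 dpi. It read 3739, 4009 and 4432 at 14 dpi, 4771, 3054 and 3121 at 30 dpi and 4549, 4613 and 4569 at 100 dpi. Rpl36al read 5673, 5572 and 7094 in control, 6148, 5465 and 4641 in sham and 4888, 5490.4 and 4980.1 at 3 dpi. Its later values were 4576, 4713 and 5346 at 14 dpi, 5789.8, 4279 and 4278 at 30 dpi and 4714, 6013 and 5418 at 100 dpi. For both, all hearts of 3 and 14 dpi stood below control, and 30 dpi 1 was inside the control range. Rps27rt, named after a retrotransposed mouse copy and of uncertain identity in the gecko, read 25, 15 and 13 in control, 13, 21 and 22 in sham and 4.1, 16 and 21 at 3 dpi. It read 12, 13 and 13 at 14 dpi, 21, 4 and 18 at 30 dpi and 33, 25 and 11 at 100 dpi, so that it was near the lower limit of the test and overlapped control in every group. Ribosomal protein genes leave many near-identical copies in vertebrate genomes, and whether reads of a parent were assigned to a copy was not tested.

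Against sham hearts the differences were smaller and none was called. The median change over the 79 genes was -0.11 at 3 dpi, -0.17 at 14 dpi, -0.24 at 30 dpi and -0.02 at 100 dpi. The numbers of genes lower at an unadjusted p under 0.05 were 2, 5, 14 and 1, where the backgrounds were 8.66%, 5.09%, 9.67% and 9.02%, and 1 gene, Rpl22l1, was higher at 100 dpi. By adjusted p limma called 0 in each, where 0.306%, 0.0408%, 1.37% and 1.61% of the other genes were called lower; edgeR called 0 in each, and DESeq2 1 at 3 dpi, 1 at 30 dpi and 0 at 14 and 100 dpi. All 3 hearts lay below all 3 sham hearts for 6 genes at 3 dpi (background 11.7%), 10 at 14 dpi (11.0%), 2 at 30 dpi (10.9%) and 1 at 100 dpi (14.4%), shares at or below the background in 3 of these 4 comparisons. Rpl15 had the smallest p at 14 dpi (log2 -0.38, limma adjusted p = 0.198) and at 100 dpi (-0.32, adjusted p = 0.128). Rps15 had it at 30 dpi (-0.40, adjusted p = 0.0813). The comparisons with sham were also open to single libraries: without 30 dpi 1 limma called 30 genes at 30 dpi, and without sham 3 it called 1. The share over all genes is not given for these fits, so the counts show only that calls depended on single libraries. The comparisons of one time with control and with sham share the injured hearts, and those of different times share the control or sham hearts.

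From one time to the next no ribosomal protein gene was called (limma, edgeR and DESeq2 0 of 79 from 3 to 14 dpi and from 14 to 30 dpi; limma and edgeR 0 and DESeq2 1 from 30 to 100 dpi). The background called lower was 0.00% and 1.57% in the first of these steps, and 0.285% were called higher in the last. The median step was -0.06 from 3 to 14 dpi, -0.05 from 14 to 30 dpi and 0.23 from 30 to 100 dpi, and the first of these turned positive on the scale of reads per library total (0.0087). With the length trend described further on removed, the 3 steps were 0.02, 0.11 and 0.04, so both early steps changed sign. Leaving out 1 library took the step from 14 to 30 dpi to at most 0.05, without 30 dpi 3, and it was also positive without 14 dpi 3 (0.01) or 30 dpi 2 (0.03). At an unadjusted p under 0.05, 1 gene was lower in the first step (Rpl22l1, log2 -0.58), 1 in the second (Rps27l, -0.42), and 12 were higher in the last; the backgrounds were 5.76%, 9.58% and 7.76%. Groups without overlap were found for 3 genes in the first step (all lower, background 9.26%), 0 in the second (12.2%) and 3 in the last (all higher, 9.09%). After Rpl22l1 the smallest p from 30 to 100 dpi was that of Rpl37a, a zinc finger protein of the large subunit. Rpl37a read 4951, 5355 and 5833 in control, 5406, 4529 and 4446 in sham, 4049.7, 4824 and 4402 at 3 dpi and 4581, 4196 and 5085 at 14 dpi. It read 5092, 3726 and 3773 at 30 dpi and 5073, 5475 and 5395 at 100 dpi, with 30 dpi 1 among the later values (log2 0.36 ± 0.13 SE, limma adjusted p = 0.191). Of the 79 genes 76 had a positive change in this step. Without 30 dpi 1, 16 were called higher. Without that library 4 genes were called in the step from 14 to 30 dpi. The shares over all genes are not given for these 2 counts.

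The next genes are given because they were among those with the smallest p in their direction. None was called or near the threshold in these comparisons. Rpl13, a large subunit protein, read 7519, 7248 and 9030.0 in control, 8045, 6969 and 5551 in sham and 7047, 8095 and 7768 at 3 dpi. It read 6391, 5964 and 7233 at 14 dpi, 8200.1, 6102 and 5772 at 30 dpi and 6269.9, 6385 and 5448 at 100 dpi. Control 3 and 30 dpi 1 were its highest libraries, and its log2 step from 3 to 14 dpi was -0.23 (limma adjusted p = 0.565). Rps13, a small subunit protein, read 16159.9, 16039 and 16263 in control, 16877, 13111 and 11648 in sham and 11507, 14809.5 and 11690.3 at 3 dpi. It read 11617, 14398 and 15267 at 14 dpi, 16076, 10631 and 10909 at 30 dpi and 10718, 11963 and 12332 at 100 dpi. Its step from 30 to 100 dpi was -0.08, against the positive steps of most genes (limma adjusted p = 0.867). From 14 to 30 dpi the positive steps with the smallest p were those of Rps24, a small subunit protein mutated in Diamond-Blackfan anaemia, and Rpl37, a zinc finger protein of the large subunit. Rps24 read 11279.9, 11375 and 13139 in control, 11264, 10172 and 9907 in sham and 8671, 9141 and 8723 at 3 dpi. It read 8344, 7882 and 8540.4 at 14 dpi, 12174, 7477 and 7606 at 30 dpi and 10325, 11937 and 11138 at 100 dpi, a log2 step of 0.10 with 30 dpi 1 the highest of its group (limma adjusted p = 0.767). Rpl37 read 7035, 6622 and 6527 in control, 6924, 5762 and 6102 in sham and 6149, 6985 and 5688 at 3 dpi. It read 5129.8, 5035 and 5704 at 14 dpi, 7803, 5185 and 4646 at 30 dpi and 5272, 8111 and 6225 at 100 dpi, a step of 0.12 with 30 dpi 1 again highest (limma adjusted p = 0.77). Rps20, a small subunit protein, was the 1 gene of the 79 with a positive difference between 14 dpi and sham, at 0.07 (limma adjusted p = 0.909). It read 6529, 5987 and 8676 in control, 7135, 6127 and 5917 in sham and 5736, 7149 and 6556 at 3 dpi, and then 6350.4, 6511 and 7247 at 14 dpi, 8216, 4663 and 5245 at 30 dpi and 5615, 7218 and 6887 at 100 dpi.

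Ribosomal protein mRNAs are short, and a trend with transcript length ran through the libraries. Of the 79 genes 78 fell in the shortest 25% of all tested genes by the length implied by the ratio of normalized count to FPKM. Across all genes, the slope of log2 deviation per doubling of length was lowest in control 3 (-0.09) and highest in 30 dpi 3 (0.19) and 30 dpi 2 (0.13), the library with the highest and the 2 with the lowest ribosomal protein medians. It was 0.02 in 30 dpi 1. The other 2394 genes of the shortest 25% had median changes from control of -0.05 in sham, -0.0088 at 3 dpi, -0.10 at 14 dpi, -0.25 at 30 dpi and -0.13 at 100 dpi. With each library's length trend removed by a smooth curve over all genes, the median change of the 79 genes from control was -0.12 in sham, -0.25 at 3 dpi, -0.24 at 14 dpi, -0.11 at 30 dpi and -0.08 at 100 dpi. Most of the difference at 3 dpi remained, and most of that at 30 dpi did not.

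**Figure D4:**
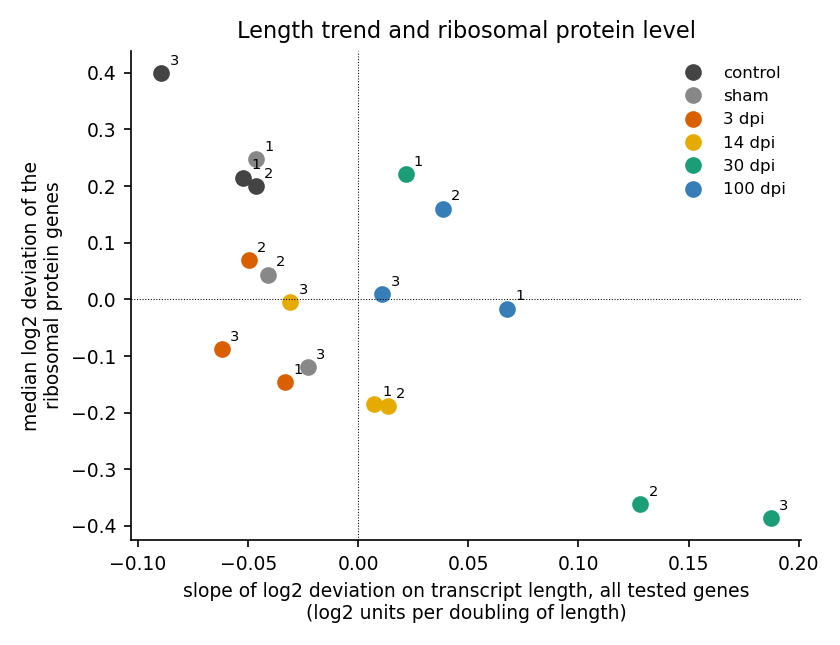
Median log2 deviation of the 79 ribosomal protein genes (vertical axis) against the slope of log2 deviation on transcript length over all tested genes (horizontal axis, log2 units per doubling of length), each point 1 of the 18 libraries. Control 3 is at the upper left and 30 dpi 2 and 3 at the lower right, while 30 dpi 1 and the 3 dpi libraries lie off that diagonal.

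With the length trend removed, 2 of the 25 calls at 30 dpi held, those of Rps27l (log2 -0.58, limma adjusted p = 0.0133) and Rpl3 (-0.62, adjusted p = 0.0249), and that of Rpl15 at 100 dpi did not (adjusted p = 0.0613). Other genes were then called: Rpl23a at 3 dpi (-0.43, limma adjusted p = 0.0431), Rpl18 at 14 dpi (-0.44, adjusted p = 0.0355) and, against sham, Rps15 at 3 dpi (-0.51, adjusted p = 0.0426). The trend was removed by implied length, which was only 56.4 bases for Rpl23a, so the corrected values of Rpl23a at 3 and 30 dpi are uncertain. The numbers of genes with all hearts below all controls became 5 in sham, 55 at 3 dpi, 54 at 14 dpi, 13 at 30 dpi and 20 at 100 dpi. The shares over all tested genes on this scale were 6.01%, 10.2%, 12.2%, 11.4% and 17.2%, so the count in sham was near that of all genes. Against sham the median at 30 dpi became 0.00084. Whether RNA quality or library preparation differed between these hearts was not tested, and the labels give no measure of either.

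Mitochondrial ribosomal proteins, which serve the separate ribosome of the mitochondrion, and respiratory chain subunits are also encoded by many short mRNAs and were set beside the cytosolic genes. The 46 mitochondrial ribosomal protein genes had median changes from control of -0.08 in sham, -0.04 at 3 dpi, -0.22 at 14 dpi, -0.35 at 30 dpi and -0.17 at 100 dpi. The 43 tested respiratory chain genes had -0.06, 0.007, -0.23, -0.33 and -0.19. At 3 dpi both stood near 0 while the cytosolic median was -0.31, and at 30 dpi all 3 medians were below -0.3; the differences between the lists were not tested. Calls at 30 dpi were 9 of 46 for the mitochondrial ribosome, all lower, and 3 of 43 for the respiratory chain. The background was 3.73% called lower and 7.43% called higher. Mrpl28, of the large mitochondrial subunit, had the smallest p, at 529 ± 37.6 against 932 ± 95.2 in control (limma log2 change -0.81 ± 0.13 SE, adjusted p = 0.000743). With the length trend removed the 30 dpi medians of the 2 lists were -0.10 and -0.04. On that scale 1 mitochondrial ribosomal protein gene and 1 respiratory chain gene were called lower at 30 dpi, and 171 of all tested genes.

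**Figure D5:**
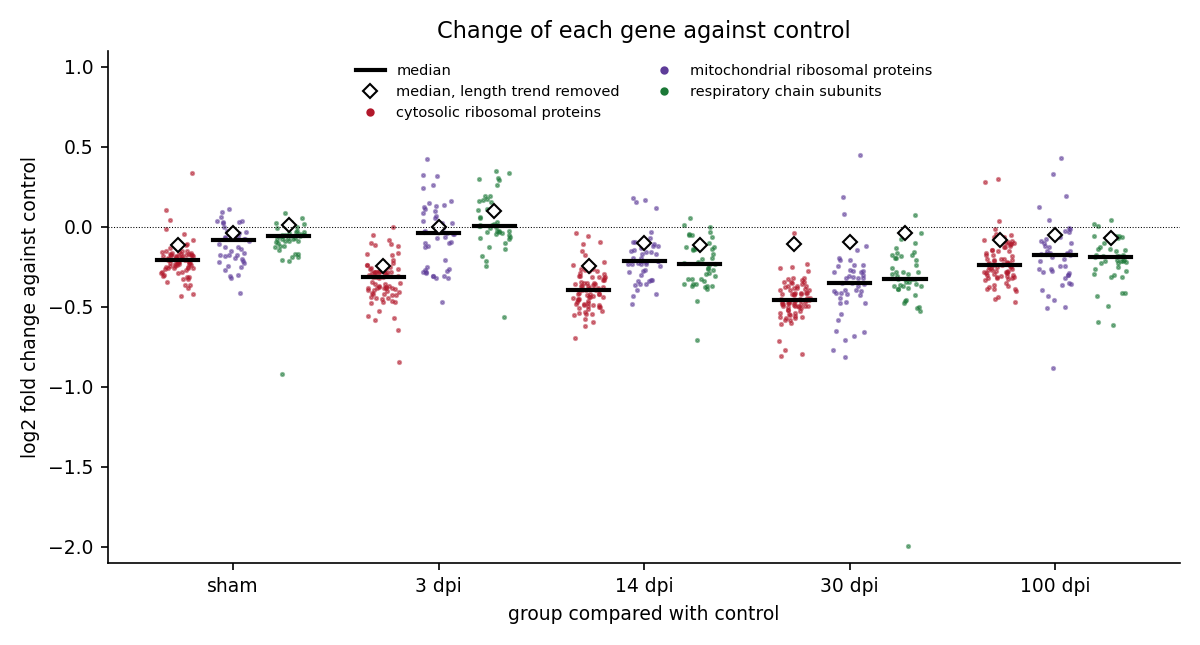
Log2 change from control in the 5 other groups for each cytosolic ribosomal protein gene (79, red), mitochondrial ribosomal protein gene (46, purple) and respiratory chain gene (43, green), with the median of each list as a bar and the median after removal of the length trend as a diamond. At 3 dpi the cytosolic genes alone lie below 0 as a set. At 30 dpi the diamonds of the 3 lists lie at -0.11, -0.10 and -0.04, above their bars.

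Genes that work with the ribosome were read from lists chosen by function. Of the 4 ribosome genes that the name pattern misses, 3 were tested. Rack1, a scaffold on the small subunit, was called lower at 100 dpi, at 11377 ± 1025 against 15047 ± 706 in control (limma log2 change -0.41 ± 0.12 SE, adjusted p = 0.0421). Fau, whose product is cut into a ubiquitin-like protein and a small subunit protein, was called lower at 30 dpi, at 4845 ± 1356 against 6997 ± 566 in control (limma log2 change -0.56 ± 0.15 SE, adjusted p = 0.0275). Translation factors and partners were listed for TOP tracts known in other vertebrates, and the gecko mRNAs were not examined for such tracts. Over 18 genes their median changes were -0.22 in sham, -0.45 at 3 dpi, -0.38 at 14 dpi, -0.36 at 30 dpi and -0.31 at 100 dpi, lowest at 3 dpi. The difference from the ribosomal protein genes was not tested. Of these 18, 1 was called lower at 3 dpi, 1 at 14 dpi, 3 at 30 dpi and 3 at 100 dpi, and none higher; the background called lower was 0.112%, 0.173%, 3.73% and 4.48% in these comparisons. Eif4b, which assists the helicase that unwinds mRNA for initiation, was lower at 3 dpi, at 11192 ± 1332 against 18326 ± 1988 in control (limma log2 change -0.71 ± 0.14 SE, adjusted p = 0.0456). Pabpc1, the poly-A binding protein, was lower at 14 dpi, at 19951 ± 762 against 29598 ± 3467 in control (limma log2 change -0.56 ± 0.12 SE, adjusted p = 0.0442). It was called at 100 dpi too (log2 -0.50, limma adjusted p = 0.0157). At 30 dpi the called genes were Npm1, a nucleolar chaperone (log2 -0.45, limma adjusted p = 0.0335), Nap1l1 (-0.32, 0.0491) and the initiation factor subunit Eif3f (-0.47, 0.0499). All 18 changes were negative at 3 and 14 dpi (background 48.4% and 49.3%). For the genes of this paragraph no values are given with the length trend removed, with a library left out or for injured hearts against sham. The part of the length trend and of single libraries in these calls was not tested.

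Ribosome assembly genes, 41 of 46 tested, had medians of -0.04 in sham, -0.11 at 3 dpi, -0.21 at 14 dpi, -0.12 at 30 dpi and -0.18 at 100 dpi. None was called by limma in sham, at 3 dpi or at 14 dpi (background called lower 0.00%, 0.112% and 0.173%). At an unadjusted p under 0.05, 0, 9 and 11 were lower (background 2.76%, 7.15% and 6.73%) and 0, 2 and 0 higher. At 30 dpi Nop56, a core protein of snoRNA particles, Pno1 and Nop16 were called lower and Gnl3 higher (background 3.73% lower and 7.43% higher); Nop56 stood at 1004 ± 260.3 against 1624 ± 169.6 in control (limma log2 change -0.72 ± 0.21 SE, adjusted p = 0.0378). At 100 dpi Ncl, Bop1 and Rrp12 were called lower (background 4.48%), and Ncl, the nucleolar protein nucleolin, stood at 5453 ± 254 against 7402 ± 293 in control (limma log2 change -0.44 ± 0.09 SE, adjusted p = 0.00659). Of 8 tested RNA polymerase I genes Polr1d alone was called, at 100 dpi (log2 -1.25, limma adjusted p = 0.0492). Of 16 mTOR and TOP control genes Larp4, a poly-A binding stabiliser of mRNA, and Rictor, the defining subunit of the second mTOR complex, rose at 30 dpi. Rictor stood at 548 ± 136 against 304 ± 53.8 in control (limma log2 change 0.83 ± 0.22 SE, adjusted p = 0.0211) and was called again at 100 dpi. Among 12 ribosome rescue genes was Map3k20, which encodes a kinase that senses stalled ribosomes, and its isoforms were not told apart. Map3k20 rose at 30 dpi to 8537 ± 391 against 5258 ± 276 in control (limma log2 change 0.70 ± 0.13 SE, adjusted p = 0.00301), with Ascc3 and Ltn1 also called higher. At 100 dpi Map3k20 and Ltn1 were called higher and Gspt1, a termination factor, lower (background 7.62% higher). Of 7 tested p53 and nucleolar stress genes Zmat3, a p53 target, rose at 30 dpi to 70.7 ± 9.23 against 19.3 ± 9.90 in control (limma log2 change 1.91 ± 0.35 SE, adjusted p = 0.00277). Zmat3 was called at 100 dpi as well, and the other 6 were called in neither of these comparisons. Outside the ribosomal protein genes, the 2472 longest tested genes had median changes from control of 0.24 at 30 dpi and 0.19 at 100 dpi. The 2394 shortest had -0.25 and -0.13. No values with the length trend removed, or with a library left out, are given for the genes of this paragraph. The part of the length trend in their changes was not tested.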

How the data were processed

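Poly-A RNA from the ventricle of 18 geckos was sequenced, and reads were aligned to a gecko genome and assembled into transcripts named from mouse annotation, per the labels. The submitters' processing notes name HISAT2 2.2.0, StringTie 2.2.1 and Salmon 1.8.0. Values came from the authors' deposited normalized counts (a signal, reads divided by a size factor per library) and from their deposited FPKM, which also divides by transcript length and library total. Each normalized count was a whole number of reads, within 0.1 reads, times 1 constant per library, and the recovered reads gave each library's depth. Median-of-ratios factors from those reads equalled the deposited ones within 4.18e-08%.

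Genes averaging at least 10 normalized counts (9887 of 12376, 79 of 80 ribosomal protein genes) were tested with limma 3.58.1 in R 4.3.3 on log2(normalized count + 1), in 1 model of 6 groups with an intensity trend and no block. Tests were two-sided, and p-values were adjusted over all tested genes in each comparison. A fold change on this scale understates the change of low genes. Ratios of paralogs used an exact permutation test, which cannot go below 0.1 with 3 against 3. The recovered reads were also tested with edgeR 4.0.16 (quasi-likelihood) and DESeq2 1.42.0. Other alternatives were pseudocounts of 0.1 and 10, no filter, TMM and other scalings, the FPKM table, only the groups compared, a replicate block, library weights, removal of a length trend per library, and leaving out each library. Scripts were tested on simulated data. Figures were drawn with matplotlib 3.10.9 in Python 3.11.15.

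The ribosomal protein genes and the other lists were chosen with earlier results of these data known, and the count of genes whose libraries all lie below all controls was added after seeing the data. Named genes were those called against control, the 2 with the smallest p in each comparison and direction (for other lists up to 3 called genes), paralogs with their parents, the 5 highest and lowest by FPKM, the 5 with the widest range of group means, and Rplp0, Rplp1, Rpl5, Rpl11, Rps6 and Rps27a for their roles; Rpl9 and Rpl38 were added after their values were seen. Some genes that the rule would name are not reported here.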

Additional observations from a re-analysis of the deposited data

How the results depend on the processing

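The median change of the ribosomal protein genes from control was negative in every group under all alternatives, and DESeq2, TMM, reads per library total and both other pseudocounts kept all 26 calls against control. Library weights kept 25 of the 26, FPKM 24 and no filter on low genes 18. With edgeR or with a replicate block 15 held. Only 2 held with only the 2 groups in the model, and 2 with the length trend removed. At 30 dpi the count of calls (25) was 47 on reads per library total, 1 with only the 2 groups, 14 with edgeR and 2 with the length trend removed. At 100 dpi (1) it was 5 in FPKM, 4 with only the 2 groups, 4 with library weights, 3 with DESeq2 and 0 with the trend removed. At 3 dpi (0) it was 2 with weights, 5 with DESeq2 and 1 with the trend removed, and at 14 dpi (0) 21, 13 and 1. Against sham (0 each), weights gave 1, 2, 1 and 1 at 3, 14, 30 and 100 dpi, DESeq2 gave 1 at 3 and 30 dpi, the trend removed gave 1 at 3 dpi, and reads per library total gave 5 at 30 dpi. The latter gave 1 from 14 to 30 dpi, and DESeq2 1 from 30 to 100 dpi. For any group (6) weights gave 22 and DESeq2 21. No share over all genes is given for the counts of calls in this paragraph. They show only how far the calls depended on the processing and on single libraries. With each library left out in turn, calls ran from 0 to 2 at 3 dpi, 0 to 8 at 14 dpi, 2 to 71 at 30 dpi and 0 to 3 at 100 dpi against control, 0 to 30 at 30 dpi against sham, 0 to 4 from 14 to 30 dpi, 0 to 16 from 30 to 100 dpi and 0 to 54 for any group.

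Leaving out 1 library, medians ran from -0.45 to -0.34 at 14 dpi, -0.65 to -0.34 at 30 dpi and -0.29 to -0.17 at 100 dpi; with the trend removed they were -0.24, -0.11 and -0.085. Without the trend the medians at 30 and 100 dpi against sham (0.00084 and 0.033), from 3 to 14 dpi (0.023) and from 14 to 30 dpi (0.11) were positive, and that from 30 to 100 dpi was 0.040 in place of 0.23. Reads per library total moved the median of all genes by 0.10 at 14 dpi against control, -0.15 at 30 dpi against sham, -0.16 from 14 to 30 dpi and 0.13 from 30 to 100 dpi. Genes below all controls numbered 6 in sham and 45 at 30 dpi on that scale (3.50% and 17.2% of all genes), and 5, 13 and 20 in sham, at 30 and at 100 dpi with the trend removed (6.01%, 11.4% and 17.2%); leaving out 1 library they ran from 12 to 70 in sham and from 27 to 76 at 30 dpi. From control and sham to 100 dpi the share of ribosomal protein genes was 17.5%, 15.6%, 14.1%, 14.8%, 13.8% and 15.9% of FPKM, and 5.90%, 5.36%, 4.77%, 4.79%, 4.43% and 5.31% of reads without the 10 rows with most reads. The log2 ratio of Rps27l to Rps27 at 100 dpi was 0.018 in FPKM, of the other sign. Leaving out 1 library, that ratio ran from -0.23 to 0.056 at 100 dpi and from -0.16 to 0.13 in sham, and that of Rpl22l1 to Rpl22 from -0.062 to 0.48 at 3 dpi. For Rpl3l to Rpl3 the ranges were -0.24 to 1.48 in sham, -1.001 to 0.31 at 3 dpi, -0.093 to 1.04 at 14 dpi, -0.27 to 1.15 at 30 dpi and -0.18 to 0.95 at 100 dpi. The causes were not tested.

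Replicate numbers gave no sign of pairing by this measure: the correlation of same-numbered deviations ran from -0.18 to 0.23, and in 0 of 12 comparisons was every one over 0.1. Whether same-numbered animals shared a processing step was not tested, and the labels name no batch. With a replicate block 14 genes were called at 30 dpi and 1 for any group.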
